A study of Mus musculus with 8 samples.

Results

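The genes described here are 7 well-known TGFβ-induced genes of fibroblasts, Fn1, Tgfbi, Cilp, Serpine2, Il11, Nox4 and Cdkn2b. They were chosen by symbol as classic response genes outside the contractile, collagen and CCN families, and all 7 were found among the 15111 genes of the deposited expression table. RNA was sequenced from cultured primary dermal fibroblasts of adult mice, with 4 control and 4 TGFβ1FKO libraries. Both groups carried floxed Tgfb1 alleles (Tgfb1fl/fl) and came from mice fed tamoxifen and killed at 10 weeks of age. By the methods, the cells were first cultured in medium with fetal calf serum. They were then cultured for 72 h on fibronectin in medium with a serum replacement. TGFβ1FKO mice additionally carried Col1a2-CreERT, a Cre recombinase that is driven by the Col1a2 promoter and active only with tamoxifen, whereas controls had no Cre. Deletion is therefore limited to cells in which that promoter was active, and Cre and the deletion cannot be told apart in this design. The methods name no sorting step between the digestion of back skin and the culture.

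TGFβ1 is secreted in a latent form, and after release it binds a pair of serine/threonine kinase receptors that phosphorylate Smad2 and Smad3. These move with Smad4 to the nucleus and act with partners such as AP-1 and Sp1 on genes for matrix proteins, protease inhibitors, cytokines and cell cycle inhibitors. In skin this response is known for its part in wound repair and scarring.

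The unit throughout is the normalised count, reads divided by the size factor of the library, with the 0.5 that had been added to each value subtracted. Reads on the listed genes summed to between 16988998 and 23071528 per library. The labels number the libraries but do not say that each came from its own mouse, so that p-values measure the spread between these libraries. Tgfb1, the deleted gene, had normalised counts of 1401, 1298, 1483 and 1314 in control replicates 1 to 4 and of 326.4, 259.9, 228.4 and 294.7 in TGFβ1FKO replicates 1 to 4. Each library thus went with its label, and the groups did not overlap. In bulk RNA, fewer cells that express a gene and less RNA per cell cannot be told apart.

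With Tgfb1 at 20.2% of its control level, none of the 7 response genes was called. Of the 7 genes, 0 passed an adjusted p under 0.05 with an absolute log2 fold change over 0.6 in limma's test, where 0.0860% of all genes did. Likewise 0 of 7 were called by edgeR's quasi-likelihood test (0.132% of all genes), by DESeq2's test against 0 (0.371%) and by DESeq2's test against 0.6 (0.0993%). At an unadjusted p under 0.05 in limma's test there were 2 of the 7, Nox4 and Cilp, both lower in TGFβ1FKO fibroblasts. Over all genes, 7.46% reached that p in either direction and 3.87% with a lower level. The log2 fold change was under 0 in 7 of the 7 genes and in 49.1% of all genes, and its median was -0.21 over the 7 genes and 0.003 over all genes. The groups did not overlap in 0 of the 7, against 3.79% of all genes. The sign of Fn1, Cdkn2b and Serpine2, whose log2 fold changes were closest to 0, turned when single libraries were left out.

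**Figure D1:**
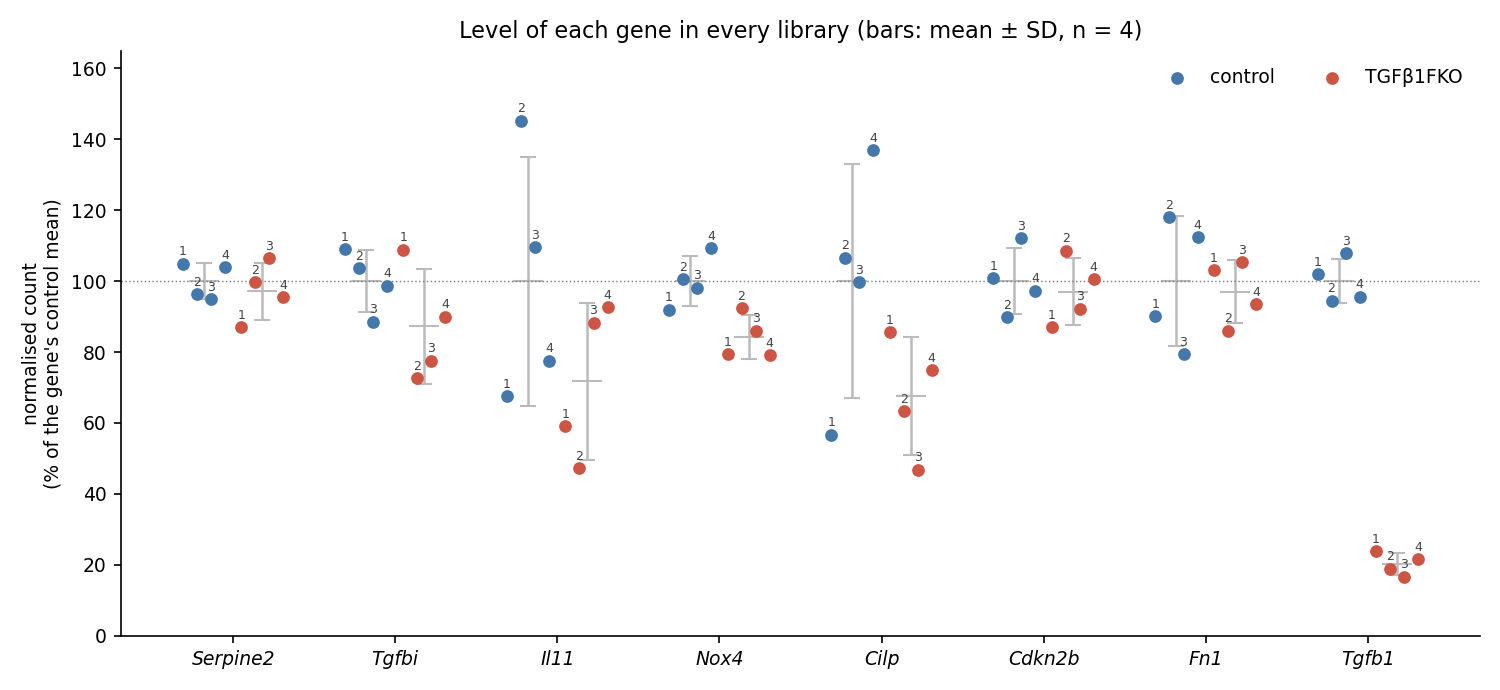
Normalised count of each gene in every library, as a percentage of the mean of the gene's 4 control libraries; blue points are control and red points TGFβ1FKO libraries, small numbers are replicates, and grey bars are the mean ± SD. Tgfb1 lies near 20.2% in TGFβ1FKO libraries, while the points of both groups overlap in each of the 7 response genes.

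Fibronectin, the product of Fn1, is a glycoprotein of the extracellular matrix on which collagen fibrils assemble and to which integrins bind. Fn1 (ENSMUSG00000026193) lies on the minus strand of chromosome 1 of GRCm38, from 71585520 to 71653200. Its normalised counts were 167957, 219977, 147964 and 209339 in control replicates 1 to 4 and 192027, 160230, 196157 and 174435 in TGFβ1FKO replicates 1 to 4. The TGFβ1FKO libraries all lay inside the range of the control libraries, of which replicates 2 and 4 were the highest of all 8. The mean was 186309 ± 34015 (SD, n = 4, control) against 180712 ± 16588 (SD, n = 4, TGFβ1FKO). The log2 fold change was -0.03 with a 95% interval from -0.32 to 0.26 (limma, adjusted p = 0.974), which spans 80.3% to 119.5% of the control level. It was 0.06, 0.03 and 0.03 without control replicate 2, control replicate 4 and TGFβ1FKO replicate 2. The antisense gene Apol7d begins at 71652837, inside Fn1 and near its start, as Fn1 is read from the minus strand. In these non-directional libraries, reads from that short shared stretch cannot be assigned to a strand.

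The list of fibronectin receptors and assembly factors held 12 genes, of which 1 was lower and 11 were higher in TGFβ1FKO fibroblasts (median log2 fold change 0.12). None was called by limma, edgeR or DESeq2, and 1 reached an unadjusted p under 0.05 in limma's test. That gene was Tns1, which encodes tensin 1 of fibrillar adhesions, with 8059 ± 818.6 (SD, n = 4, control) against 9241 ± 573.4 (SD, n = 4, TGFβ1FKO). Ilk, a kinase-like protein of integrin adhesions, had a log2 fold change of 0.30 with an interval from -0.008 to 0.61. Itga5, the alpha subunit of the main fibronectin receptor, had a log2 fold change of 0.12 with an interval from -0.006 to 0.25.

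Tgfbi encodes a secreted matrix protein with fasciclin domains that binds collagens and integrins. Tgfbi (ENSMUSG00000035493) is on the plus strand of chromosome 13, from 56609523 to 56639562. Its normalised counts were 4572, 4351, 3715 and 4141 in control replicates 1 to 4 and 4569, 3047, 3257 and 3774 in TGFβ1FKO replicates 1 to 4. TGFβ1FKO replicates 2 and 3 lay below every control library, whereas TGFβ1FKO replicate 1 was nearly as high as the highest control. The mean of TGFβ1FKO fibroblasts was 87.3% of the control mean, with 4195 ± 365 (SD, n = 4, control) against 3662 ± 677.9 (SD, n = 4, TGFβ1FKO). Limma's log2 fold change was -0.21 (95% interval from -0.44 to 0.03; limma, adjusted p = 0.692), and a two-sided exact permutation test gave p = 0.229. Without TGFβ1FKO replicate 1 it was -0.32, with a lowest adjusted p of 0.259 when libraries were dropped in turn.

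Of the other fasciclin genes on the list, Postn and Stab1 had values. Postn, which encodes the matrix protein periostin, had 89674 ± 5325 (SD, n = 4, control) against 70836 ± 12480 (SD, n = 4, TGFβ1FKO). Its log2 fold change was -0.36, with an interval from -0.61 to -0.10 (limma, adjusted p = 0.536), so that it was not called. Stab1 was lower in mean as well, with an interval that spans 0.

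Cilp encodes cartilage intermediate layer protein, a secreted matrix protein that binds TGFβ1 and is also made by fibroblasts. Cilp (ENSMUSG00000042254) is on the plus strand of chromosome 9, from 65265180 to 65280605. Libraries held normalised counts of 2231, 4195, 3928 and 5387 in control replicates 1 to 4 and 3372, 2491, 1840 and 2948 in TGFβ1FKO replicates 1 to 4. Controls 2 to 4 lay above every TGFβ1FKO library, but control replicate 1 lay among them, above TGFβ1FKO replicate 3 only. The mean was 67.7% of the control mean, with 3935 ± 1301 (SD, n = 4, control) against 2663 ± 656.1 (SD, n = 4, TGFβ1FKO). Its log2 fold change came to -0.53, with a 95% interval from -1.03 to -0.03 (limma, adjusted p = 0.654), and a two-sided exact permutation test gave p = 0.171. Without control replicate 1 the log2 fold change was -0.78 and the groups did not overlap, as was then the case for 7.19% of all genes. The lowest adjusted p when libraries were dropped in turn was 0.178 in limma's test. Cilp also varied more within groups than most genes, with an SD of log2 values at the 98.5th percentile of genes whose counts averaged 50 or more.

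The promoter window of Cilp, from 250 bases before to 50 bases after the start of the gene in RefSeq, is shown because Cilp had the lowest log2 fold change of the 7 genes. Of these, 6 were matched by symbol to RefSeq promoters of GRCm38.p6, all but Fn1, with 7 windows in all, since Il11 had 2. Each was searched on both strands for GTCTAGAC, a palindromic Smad box, CAGACA, the core of the CAGA box, TGANTCA, the AP-1 site, and GGGCGG, the Sp1 site. These letters are in 0.213%, 21.0%, 7.81% and 35.7% of 32851 promoter windows of that length, in the same order. Capitals mark any match, matches of different motifs did not overlap in the windows shown, and a match is a description of the letters only. The Cilp window (chr9:65264930-65265229, plus strand) held no match.
Cilp: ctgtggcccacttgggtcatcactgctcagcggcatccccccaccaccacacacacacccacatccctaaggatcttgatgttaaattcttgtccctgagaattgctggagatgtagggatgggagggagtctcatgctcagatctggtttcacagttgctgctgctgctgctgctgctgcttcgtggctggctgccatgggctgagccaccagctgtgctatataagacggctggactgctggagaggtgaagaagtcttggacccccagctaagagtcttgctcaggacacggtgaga

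Of the list of CILP relatives and cartilage matrix genes, 5 had values, and 0 were called by limma, edgeR or DESeq2. An unadjusted p under 0.05 was reached by 1 lower and 2 higher genes. Igf1, the growth factor that CILP is known to antagonise, had 969.1 ± 125.7 (SD, n = 4, control) against 817.1 ± 81.3 (SD, n = 4, TGFβ1FKO). For its receptor Igf1r the groups did not overlap, with 2310 ± 121.9 (SD, n = 4, control) against 2660 ± 104.6 (SD, n = 4, TGFβ1FKO). Fmod, which encodes the collagen-binding proteoglycan fibromodulin, had a log2 fold change of 0.19 (limma, adjusted p = 0.647). Comp, a cartilage oligomeric matrix protein that fibroblasts make under TGFβ, had 28.0 ± 11.2 (SD, n = 4) and 19.4 ± 1.60 (SD, n = 4) normalised counts, and its interval spans 0.

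Serpine2 encodes protease nexin 1, a secreted serpin that inhibits thrombin and the plasminogen activators. Serpine2 (ENSMUSG00000026249) is on the minus strand of chromosome 1, from 79794197 to 79861180. Serpine2 had normalised counts of 4496, 4130, 4065 and 4452 in control replicates 1 to 4 and 3734, 4272, 4562 and 4092 in TGFβ1FKO replicates 1 to 4. TGFβ1FKO replicate 3 was the highest of all 8 libraries and TGFβ1FKO replicate 1 the lowest. The log2 fold change was -0.04 with the narrowest interval of the 7 genes, from -0.18 to 0.10, or from 88.0% to 106.9% of the control level (limma, adjusted p = 0.910). Without TGFβ1FKO replicate 1 it was 0.008. Of the other serpins and of the proteases and receptors that Serpine2 works with, 10 had values, 5 lower and 5 higher. None was called by limma, edgeR or DESeq2, and 0 reached an unadjusted p under 0.05. Among them the protease Plau, a plasminogen activator and target of this inhibitor, had a log2 fold change of -0.09, with an interval from -0.29 to 0.11. F3, the tissue factor that starts coagulation, had the lowest p of the list, with a log2 fold change of -0.25 (limma, adjusted p = 0.724).

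Il11 encodes interleukin 11, a cytokine of the IL6 family that TGFβ induces in fibroblasts. Il11 (ENSMUSG00000004371) is on the minus strand of chromosome 7, from 4772373 to 4782859. It was the lowest of the 7 genes, with 18 to 54 reads in a library. Its normalised counts were 26.7, 57.4, 43.3 and 30.6 in control replicates 1 to 4 and 23.3, 18.6, 34.9 and 36.6 in TGFβ1FKO replicates 1 to 4. Controls 2 and 3 were the highest libraries and TGFβ1FKO replicates 1 and 2 the lowest, while TGFβ1FKO replicates 3 and 4 lay above control replicates 1 and 4. The means were 39.5 ± 13.9 (SD, n = 4, control) against 28.4 ± 8.75 (SD, n = 4, TGFβ1FKO). Limma gave a log2 fold change of -0.45, with a 95% interval from -1.09 to 0.18 (limma, adjusted p = 0.744), and a two-sided exact permutation test gave p = 0.229. The interval covers levels from 47.1% to 113.3% of control, so that a level of 50% and an unchanged level both lie inside it.

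Il11 has 2 promoter windows. The one with an AP-1 match is shown, as the only AP-1 match among the 7 windows. In this window (chr7:4778092-4778391, minus strand), TGAGTCA begins at -98 from the start. The Sp1 letters on the opposite strand begin at -79, -55, -51 and -47, and of the last 3 only neighbouring matches overlap.
Il11: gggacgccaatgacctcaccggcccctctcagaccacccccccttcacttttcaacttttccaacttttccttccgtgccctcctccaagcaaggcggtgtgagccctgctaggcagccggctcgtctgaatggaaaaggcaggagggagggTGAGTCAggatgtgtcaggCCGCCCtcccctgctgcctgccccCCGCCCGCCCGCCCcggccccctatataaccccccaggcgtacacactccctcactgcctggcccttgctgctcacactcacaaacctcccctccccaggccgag

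Of the list of interleukin 11 receptor and IL6-family genes, 10 had values, 8 lower and 2 higher, with a median log2 fold change of -0.09. None was called by limma, edgeR or DESeq2, and 1 reached an unadjusted p under 0.05 in limma's test. That gene was Lif, a cytokine of the same family, with 256.1 ± 31.6 (SD, n = 4, control) against 204.0 ± 19.2 (SD, n = 4, TGFβ1FKO) and no overlap of the groups. Its log2 fold change was -0.32, with an interval from -0.56 to -0.08 (limma, adjusted p = 0.555). Il6st, the shared signalling chain of the family, was the most abundant gene of the list per length, with a log2 fold change of 0.11 and an interval from -0.05 to 0.27.

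Nox4 encodes an NADPH oxidase that makes hydrogen peroxide and is induced by TGFβ in fibroblasts. Nox4 (ENSMUSG00000030562) is on the plus strand of chromosome 7, from 87246096 to 87398710. Its normalised counts were 270.1, 295.4, 288.3 and 321 in control replicates 1 to 4 and 233.1, 271.3, 252.4 and 232.7 in TGFβ1FKO replicates 1 to 4. All control libraries but replicate 1 lay above all TGFβ1FKO libraries, and the overlap rested on TGFβ1FKO replicate 2, which was just above control replicate 1. The mean was 293.7 ± 21.1 (SD, n = 4, control) against 247.4 ± 18.4 (SD, n = 4, TGFβ1FKO), 84.2% of the control level. The log2 fold change was -0.25, with a 95% interval from -0.44 to -0.05 (limma, adjusted p = 0.597). A two-sided exact permutation test gave p = 0.0571, where the smallest p that 4 libraries against 4 allow is 0.0286. With TMM scaling the Nox4 groups did not overlap, as was then the case for 3.84% of all genes. They did not overlap either without control replicate 1 (7.19% of all genes) or without TGFβ1FKO replicate 2 (6.42%). With each library left out, the log2 fold change of Nox4 lay between -0.29 and -0.20.

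The Nox4 window is shown because Nox4 had the lowest exact p of the 7 genes and the only CAGA box core among their windows. In it (chr7:87246399-87246698, plus strand), the letters of the CAGA box core on the opposite strand begin at -142 from the start, and GGGCGG begins at -24.
Nox4: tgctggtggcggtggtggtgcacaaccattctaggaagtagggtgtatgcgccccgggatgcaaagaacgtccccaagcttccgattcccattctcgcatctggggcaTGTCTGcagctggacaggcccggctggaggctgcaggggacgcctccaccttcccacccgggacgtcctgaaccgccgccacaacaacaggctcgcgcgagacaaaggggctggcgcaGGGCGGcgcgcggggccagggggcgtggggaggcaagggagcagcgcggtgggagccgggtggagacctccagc

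Of the other NADPH oxidase subunits on the list, 4 had values. In limma's test 0 were called and 0 reached an unadjusted p under 0.05, and edgeR and DESeq2 called 0. Cyba, the p22phox subunit that Nox4 needs, had 1167 ± 90.2 (SD, n = 4, control) against 1180 ± 90.7 (SD, n = 4, TGFβ1FKO), a log2 fold change of 0.02 with an interval from -0.14 to 0.17. Poldip2, a partner of Nox4, had a log2 fold change of -0.02 with an interval from -0.15 to 0.11. Duox1, an oxidase of the same family, had an interval that spans 0.

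Cdkn2b encodes p15, an inhibitor of the cyclin D kinases that TGFβ is known to induce. Cdkn2b (ENSMUSG00000073802) is on the minus strand of chromosome 4, from 89306299 to 89311039. Counts after normalisation were 1695, 1509, 1885 and 1635 in control replicates 1 to 4 and 1463, 1826, 1550 and 1690 in TGFβ1FKO replicates 1 to 4. The groups overlapped widely, with the highest value in control replicate 3 and the lowest in TGFβ1FKO replicate 1. The log2 fold change was -0.04 with a 95% interval from -0.22 to 0.13, or 86.0% to 109.5% of control (limma, adjusted p = 0.929). Without control replicate 3 it was 0.01, and without TGFβ1FKO replicate 1 it was 0.008.

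The list of INK4 and CIP/KIP inhibitors and their targets held 13 genes, of which 0 were called by limma, edgeR or DESeq2. An unadjusted p under 0.05 was reached by 2 lower and 3 higher genes. The D-type cyclins, which p15-sensitive kinases need, were the 3 that were higher, Ccnd1, Ccnd2 and Ccnd3. Ccnd1 had 5385 ± 664.2 (SD, n = 4, control) against 7232 ± 1520 (SD, n = 4, TGFβ1FKO), with a log2 fold change of 0.41 (limma, adjusted p = 0.510). For Ccnd3 the groups did not overlap, with a log2 fold change of 0.15, and Ccnd2 had 0.25. The 2 lower genes encode CIP/KIP inhibitors, Cdkn1c with a log2 fold change of -0.48 and an interval from -0.90 to -0.07 (limma, adjusted p = 0.637), the largest of the list, and Cdkn1b with -0.15 (limma, adjusted p = 0.658). Cdkn2a, the neighbouring inhibitor gene, had 776 ± 92.5 (SD, n = 4) and 785.4 ± 106.4 (SD, n = 4) normalised counts.

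**Figure D2:**
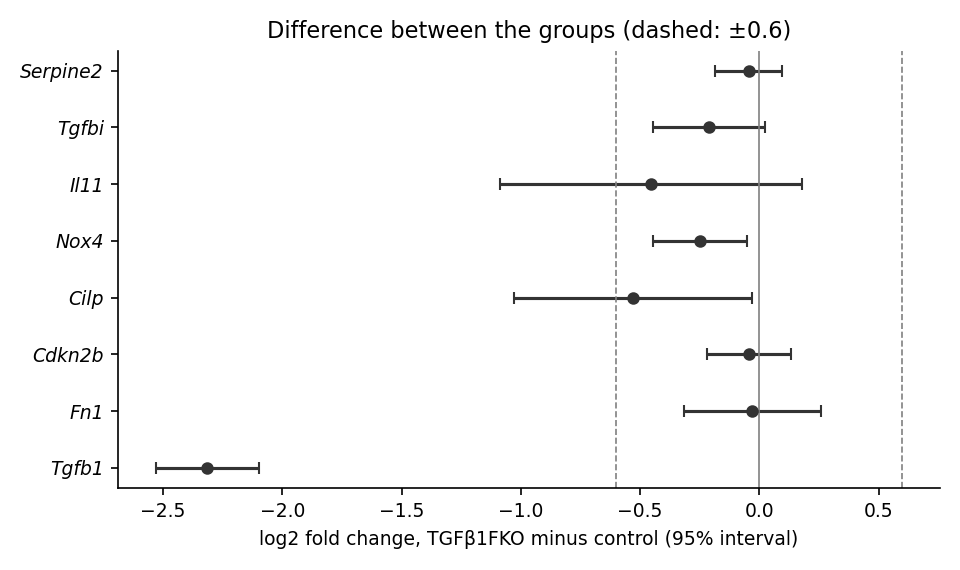
Log2 fold change of each gene (TGFβ1FKO minus control, on log2 of the normalised count + 1) from limma, with its 95% interval; dashed lines mark ±0.6. The intervals of Nox4 and Cilp lie below 0, those of the other 5 response genes span 0, and Tgfb1 lies at -2.31.

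**Figure D3:**
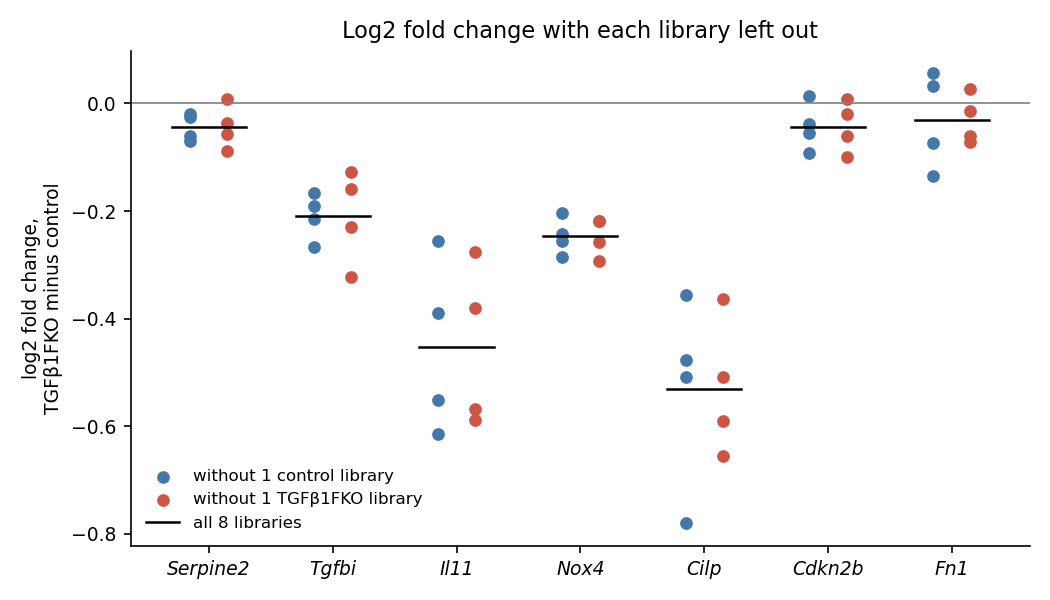
Log2 fold change of the 7 genes with each of the 8 libraries left out in turn (blue, a control library; red, a TGFβ1FKO library) beside the value with all libraries (black line). Tgfbi, Il11, Nox4 and Cilp stay below 0 in all 8 fits, whereas Serpine2, Cdkn2b and Fn1 cross 0.

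The count of genes at an unadjusted p under 0.05, which was 2 of 7, depended on single libraries. It was 1 without control replicate 2, TGFβ1FKO replicate 2 or TGFβ1FKO replicate 3, each time Nox4, and 1, Cilp, without TGFβ1FKO replicate 4. It was 0 without control replicate 4 and 3, with Tgfbi added, without TGFβ1FKO replicate 1. Without control replicate 3 the count stayed at 2, but the genes were Tgfbi and Nox4. Nox4 thus reached that p in 6 of the 8 fits and Cilp in 3.

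Levels can be compared between genes only per length, here per kilobase of the union of exons in GENCODE M21. In this order Fn1 came first with 15705 normalised counts per kilobase, at the 99.8th percentile of the table, followed by Cdkn2b with 1192 and Tgfbi with 1042. Cilp followed with 775.9, Serpine2 with 509.9, Nox4 with 31.9 and Il11 with 16.3, the last at the 23.5th percentile. Fn1 was highest, Nox4 the next to last and Il11 lowest in all 8 libraries. The order of Cdkn2b and Tgfbi held in 6 of 8 libraries. That of Tgfbi and Cilp held in 7, and that of Cilp and Serpine2 in 6. These orders were not tested. With the length of the longest transcript, both Serpine2 and Tgfbi stood above Cilp in all 8 libraries. The order of Cdkn2b and Tgfbi then held in 3.

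**Figure D4:**
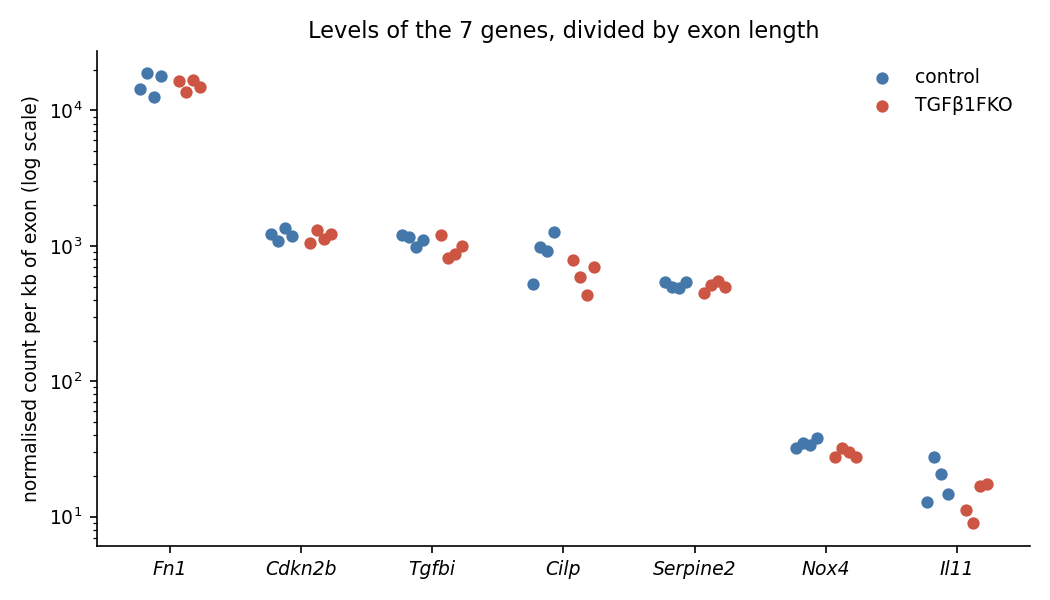
Normalised count per kilobase of exon, on a log scale, of the 7 genes in each library (blue, control; red, TGFβ1FKO). Fn1 lies above the others and Nox4 and Il11 below them in all 8 libraries, and the 4 genes between overlap in part.

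Pairs of the 7 genes differed in how they varied from library to library. Over the 21 pairs, 14 of them with an r above 0, Pearson's r of log2 values over the 8 libraries had a median of 0.21 and ranged from -0.85 to 0.59, against a median of -0.001 over pairs of the 11561 genes whose normalised counts averaged 50 or more. The pair with the lowest r was Cdkn2b with Fn1 (Spearman's rho -0.83), and r was -0.88 with values centred on their group means. The pair with the highest r was Nox4 with Cilp, at 0.59, which was 0.30 with centred values. With centred values the median over the 21 pairs was 0.06. These are descriptions, as the pairs share libraries.

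For the 6 genes whose counts averaged 50 or more, the genes most like them over the 8 libraries were found by Pearson's r. For Cilp these were Cryzl2 with an r of 0.99 and Col8a2 with 0.98, a network-forming collagen gene with a log2 fold change of -0.57. For Nox4 they were Cep135 with 0.96 and Ctnnbip1 with 0.94, and for Tgfbi they were Mrpl41 with 0.97 and Tmem86a with 0.96. For Fn1 they were Ddhd1 with 0.97 and Wdr82 with 0.95, for Cdkn2b 4930503L19Rik with 0.95 and Klc1 with 0.95, and for Serpine2 Smpd1 with 0.93 and Rbm7 with 0.93. Among 11560 genes and 8 libraries, values of this size are found for every one of the 6 genes.

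The genes of all context lists, those for proliferation and the Y chromosome included and the 7 genes and Tgfb1 left out, numbered 155. In limma's test 0 of them were called and 26 reached an unadjusted p under 0.05, 11 lower and 15 higher, with a median log2 fold change of 0.016. DESeq2's test against 0 called Itgb8 and Myh11, edgeR called Myh11, and DESeq2's test against 0.6 called 0. Among the 36 other TGFβ response genes, 20 were lower and 16 higher (median log2 -0.04), and 4 lower and 2 higher reached an unadjusted p under 0.05. In this list the groups did not overlap for Sphk1, a kinase that makes sphingosine-1-phosphate, with 279.6 ± 31.6 (SD, n = 4, control) against 223.9 ± 22.4 (SD, n = 4, TGFβ1FKO), nor for Lif. Inhba, which encodes a chain of activin, had a log2 fold change of 0.36, with an interval from 0.13 to 0.58.

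Ligands, receptors and Smads other than Tgfb1 had no gene at an unadjusted p under 0.05 in limma's test. Among the 11 feedback regulators, 1 reached that p, Pmepa1, which encodes a membrane protein that limits Smad signalling. Pmepa1 had 3549 ± 175.9 (SD, n = 4, control) against 3176 ± 171.9 (SD, n = 4, TGFβ1FKO) without overlap of the groups, a log2 fold change of -0.16 (limma, adjusted p = 0.566). Of 14 genes for latent TGFβ storage and activation, 2 were lower and 1 was higher at that p. Itgb8, a subunit of an integrin that activates latent TGFβ, had 49.9 ± 22.0 (SD, n = 4, control) against 16.6 ± 3.74 (SD, n = 4, TGFβ1FKO) (limma, adjusted p = 0.169). Lrrc32, which tethers latent TGFβ to the cell surface, was the higher gene and did not overlap either, with a log2 fold change of 0.23 (limma, adjusted p = 0.555). The 7 response genes all had a log2 fold change under 0, with signs of Fn1, Cdkn2b and Serpine2 that turned without single libraries. In contrast, all 15 contractile genes had a log2 fold change above 0, with a median of 0.18. Of these, 6 were higher at an unadjusted p under 0.05. Acta2, which encodes α-smooth muscle actin and was the most abundant of the list per length, had 34200 ± 3315 (SD, n = 4, control) against 39021 ± 2996 (SD, n = 4, TGFβ1FKO). Its log2 fold change was 0.19 (limma, adjusted p = 0.654). Myh11, which encodes a smooth muscle myosin, had 445.6 ± 36.6 (SD, n = 4) and 740.0 ± 150.2 (SD, n = 4) normalised counts and a log2 fold change of 0.71 (limma, adjusted p = 0.0649). Its groups did not overlap, nor did those of Flna, which encodes the actin crosslinker filamin A, with a log2 fold change of 0.24 (limma, adjusted p = 0.455). The 9 fibrillar collagen genes had fold changes around 0 (median log2 -0.004), and 0 reached an unadjusted p under 0.05 or were called by limma, edgeR or DESeq2.

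The label of the cells was checked against marker genes. All 12 fibroblast markers had values, with summed normalised counts from 1476870 to 1791839 per control library and from 1521129 to 1670531 per TGFβ1FKO library, and Col1a1 was the most abundant. Of the 8 keratinocyte markers 3 had values, summing to between 91.2 and 124.3, with Krt10 the most abundant. Of the 8 macrophage or leukocyte markers 4 had values (372.0 to 644.9, Lyz2 the most abundant), of the 7 melanocyte markers 3 (215.1 to 332.8, Mitf), of the 6 adipocyte markers 2 (107.5 to 209.2, Pparg) and of the 7 skeletal muscle markers 2 (566.9 to 976.4, Acta1). The 7 pericyte or smooth muscle markers with values summed to between 19406 and 22812, most of it Pdgfrb, which fibroblasts also express. Of these 7, 5 were lower and 2 higher in mean, and 1 reached an unadjusted p under 0.05, Cspg4, with 599.8 and 411.7 normalised counts in control and TGFβ1FKO libraries and a log2 fold change of -0.50. Among the keratinocyte markers 1 reached that p with a higher level, and in the other lists of this paragraph 0 did. None of them was called by limma, edgeR or DESeq2.

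Schwann cell markers moved with genotype. All 9 of the 10 listed that had values were lower in TGFβ1FKO fibroblasts and reached an unadjusted p under 0.05 (median log2 fold change -2.27). Sox10 and Foxd3 were called by limma over all genes. Their summed normalised counts were 2517, 2233, 2444 and 1727 in control replicates 1 to 4 and 1814, 940.3, 900.1 and 1274 in TGFβ1FKO replicates 1 to 4, and Ngfr was the most abundant. The 9 endothelial cell markers were likewise all lower in mean, 2 of them at an unadjusted p under 0.05 and 0 called by limma, edgeR or DESeq2. Their sums were 825.0, 1081, 980.2 and 668.6 in control and 679.1, 700.1, 713.3 and 691.3 in TGFβ1FKO replicates 1 to 4, with Tek the most abundant. The part of these cells in the values of the 7 response genes was not tested.

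These values have limits. With 4 libraries per group, the intervals of Serpine2 and Cdkn2b lie between 86.0% and 109.5% of the control level, while those of Il11 and Cilp reach down to 47.1% and 49.0%. Schwann cell markers, lower in TGFβ1FKO fibroblasts, show that the cultures differed in more than Tgfb1, and how much of each response gene's RNA came from other cells was not measured. RNA was taken at a single time, after culture with serum and then 72 h with a serum replacement. Levels in skin or after added TGFβ1 are therefore not given by these libraries. Protein was not analysed here.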

How the data were processed

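RNA of cultured dermal fibroblasts was sequenced in 4 control and 4 TGFβ1FKO libraries, grouped by the genotype in the labels. Per the submitters' processing notes, HISAT2 2.0.5, featureCounts 1.5.0-p3 and DESeq2 1.42.0 were used with GRCm38. The authors removed genes with few reads, divided reads by size factors and deposited the result with 0.5 added, a signal that is never negative, for 15111 genes. The deposited table also holds the authors' fold changes and p-values, which were not used. With the 0.5 subtracted, 100% of values in every library were whole reads within 0.05 reads.

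Log2 values with a pseudocount of 1, which understates the change of low genes, were the input of limma 3.58.1 (R 4.3.3), whose variance prior followed the mean, with Benjamini-Hochberg adjustment over all genes. A called gene had an adjusted p under 0.05 and a log2 fold change beyond 0.6 in either direction. Recovered reads were tested with edgeR 4.0.16 and DESeq2 1.42.0. Permutation tests (scipy 1.17.1) were exact and two-sided. No 2 libraries of a group were copies (lowest chi-square per degree of freedom 5.2).

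Coordinates and lengths are from GENCODE M21, which held 15098 of the genes, and promoters from RefSeq. Beside the 7 genes and Tgfb1, up to 4 genes of each context list with the lowest p could be named, with any called or without overlap, and the most abundant per length where a sentence needed it; not all of these are in the text. For each gene with a mean of at least 50, the 2 genes of highest r were named. Cdkn2a, Cdkn1b and Plau were named outside this rule, after their values were seen. Alternatives covered the test, scaling, pseudocounts of 0.5 and 5, at least 10 reads in every library, an adjusted p of 0.1, the replicate number as a block, each library left out, transcript length and the measure of correlation. The members and lists were chosen with earlier results of these data known.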

Additional observations from a re-analysis of the deposited data

Results flagged for a closer look

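In the 16 groups of 4 libraries tested, those of the 7 response genes and Tgfb1, no library lay far from the others by Dixon's ratio at its 95% critical value. The highest ratio was 0.538, for Cilp in control replicate 1, followed by 0.523 for Tgfbi in TGFβ1FKO replicate 1.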

How the results depend on the processing

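No response gene was called in any of the 17 alternatives, and the direction of all 7 held in the 9 that kept all libraries. With libraries dropped in turn, the log2 fold change ranged from -0.089 to 0.008 for Serpine2, from -0.099 to 0.014 for Cdkn2b and from -0.135 to 0.056 for Fn1. It ranged from -0.32 to -0.13 for Tgfbi, from -0.61 to -0.26 for Il11, from -0.29 to -0.20 for Nox4, from -0.78 to -0.36 for Cilp and from -2.40 to -2.23 for Tgfb1. The response genes at an unadjusted p under 0.05 numbered 1 with DESeq2 against 0, 0 with DESeq2 against 0.6 and from 0 to 3 without a library. Those whose groups did not overlap numbered 1 with TMM scaling and from 0 to 2 without a library.

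The differentially expressed genes, 13, numbered 20 with edgeR, 56 with DESeq2 against 0, 25 at an adjusted p of 0.1, 3 with at least 10 reads in every library, which left 12946 genes, and from 5 to 32 without a library. With the length of the longest transcript, the level per kilobase was 1245 for Serpine2, 1308 for Tgfbi, 69.0 for Nox4 and 22070 for Fn1. The cause of these differences was not tested.

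The replicate number as a block gave 31 genes and 3 response genes at an unadjusted p under 0.05, with Tgfbi added. Deviations of libraries with the same number correlated by 0.156, -0.134, 0.052 and 0.159, and control replicate 4 went best with TGFβ1FKO replicate 2 (0.387). These correlations were not tested, and whether the number pairs the samples cannot be told from them.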

Other observations

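Genes of proliferation had no gene at an unadjusted p under 0.05 in limma's test among 8, and limma, edgeR and DESeq2 called 0. Mki67, which marks cycling cells, had 1395 ± 250 (SD, n = 4, control) against 1534 ± 143.5 (SD, n = 4, TGFβ1FKO), a log2 fold change of 0.15 with an interval from -0.08 to 0.38. Cdkn2b, the cell cycle inhibitor among the response genes, had an interval that spans 0 as well.

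On the Y chromosome, Eif2s3y, Ddx3y, Uty and Kdm5d had at least 389 reads in every library. Eif2s3y had a log2 fold change of -0.24 (limma, adjusted p = 0.641), and the groups of Kdm5d did not overlap, with 445.3 ± 10.4 (SD, n = 4, control) against 488.9 ± 14.3 (SD, n = 4, TGFβ1FKO).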
